A study of Mus musculus with 33 samples.

Results

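YTHDF2 is a cytoplasmic reader of N6-methyladenosine (m6A), a methyl mark placed on adenosines of many mRNAs. It is best known for bringing marked transcripts to the deadenylation and decay machinery, and in the neural lineage it is needed for embryonic neural stem and progenitor cells. RNA immunoprecipitation sequencing (RIP-seq) recovers the RNAs that come down from a cell lysate with an antibody against the protein, and the same lysate without pull-down, the input, gives the starting pool. The comparison described here asks which transcripts of wild-type neural stem cells were over- or under-represented with the YTHDF2 antibody relative to input.

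The 6 samples were chosen by their count-table column names, 3 YTHDF2 pull-downs and 3 inputs, out of 33 samples in the series. All came from hippocampal neural stem cells (NSCs) of the Nestin-WT genotype, taken at postnatal day 0.5, expanded with bFGF and EGF and given no drug. 3 IgG pull-downs of the same cells were in the same table. Further readouts were 6 libraries of an m6A antibody pull-down and its input, and 6 RNA-seq libraries of Nestin-WT cells. These RNA-seq libraries were taken at 0 and 4 h of actinomycin D, which blocks transcription. RNA-seq libraries labelled Ythdf2 conditional knockout (cKO) were also compared with WT at 0 h. All RNA-seq libraries of the series, of both labels and every time point, were fitted together. The labels name no separate cultures or animals behind the replicate numbers. The p-values of the pull-down comparison therefore measure the spread between these samples left after replicate number, which may be technical.

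The sample titles and the column names disagreed for these 6 libraries: each column named YTHDF2 belonged to a sample titled as an input, and each column named Input to one titled as a YTHDF2 pull-down. The column names were used, and under the titles every difference between YTHDF2 and input would keep its size and take the opposite sign. Across genes, the libraries named Input correlated with the mean of the m6A series' inputs at r = 0.944 to 0.948 and with untreated WT RNA-seq at 0.863 to 0.878. The libraries named YTHDF2 gave 0.908 to 0.913 and 0.829 to 0.838. Depth was 19169760 to 22173431 counts in the YTHDF2 libraries, 12017351 to 23097887 in the inputs and 8419106 to 18924608 in the IgG libraries.

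The input libraries carried NSC transcripts at high levels per length, with median TPM (a level scaled to transcript length and library total) of 7310 for Fabp7, 2090 for Vim, 1490 for Slc1a3 and 52.1 for Sox2, and low levels of Nes (5.67) and Msi1 (0.968). Astrocyte markers (Gfap, 1450 TPM) and oligodendrocyte lineage markers (Olig2, 23.6 TPM) were also present. Microglial and endothelial markers were near 0, with 10 of 12 and 10 of 10 below 1 TPM. In such bulk libraries fewer cells of a type and less RNA per cell cannot be told apart. Their part in the pull-down differences was not tested.

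The YTHDF2 pull-down differed from input over most of the transcriptome. Of 14255 genes tested with edgeR's quasi-likelihood test, 5549 were higher with YTHDF2 (38.9%) and 3526 were lower (24.7%) at an adjusted p below 0.05. Of these, 2951 rose by more than 2-fold and 468 by more than 4-fold, while 1248 fell by more than 2-fold and 55 by more than 4-fold. Normalized CPM (counts scaled to library size) of the YTHDF2 and input libraries did not overlap for 8004 genes (56.1%), among them 4690 of those that rose and 2815 of those that fell. The median difference over all tested genes was 0.23 on the log2 scale, so a value near 0.23 is typical rather than raised. The log2 ratios of the 3 YTHDF2 and input pairs correlated at r = 0.774 to 0.800 across the 14255 genes, and 5455 of the genes that rose had the same sign in all 3 pairs.

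**Figure D1:**
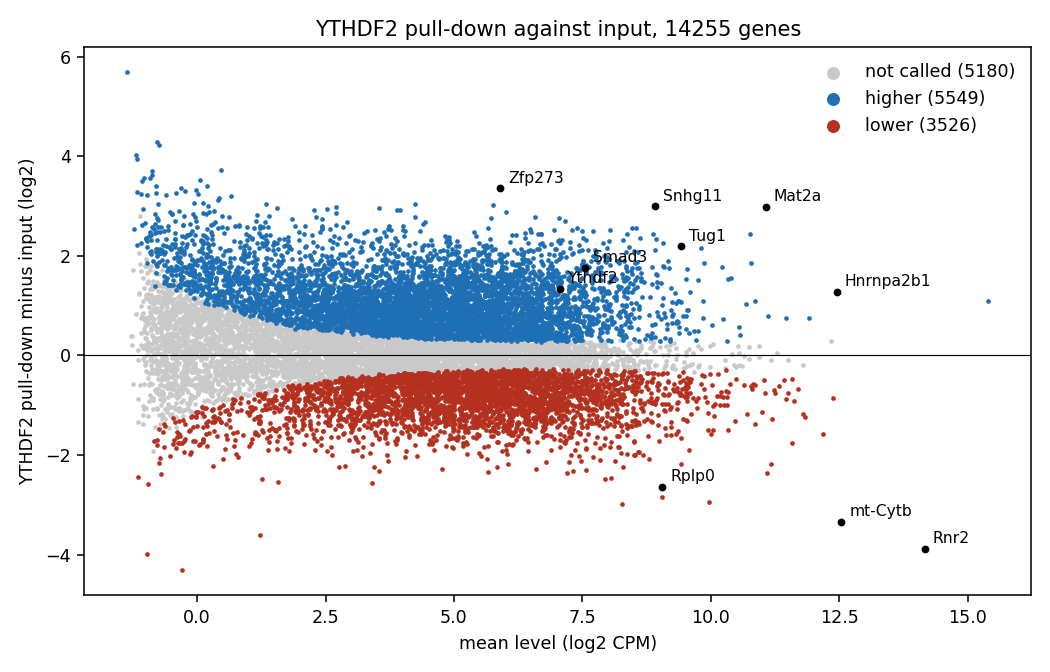
Each point is 1 of 14255 genes, with its mean level over the 9 libraries of the series (log2 CPM) on the x axis and the fitted difference between YTHDF2 pull-down and input (log2) on the y axis. The 5549 genes called higher and 3526 called lower are coloured, and black points are named transcripts, from Zfp273 at 3.35 to Rnr2 at -3.89.

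The IgG pull-down, which should carry RNA held by the beads or a nonspecific antibody, was also far from input: 3958 genes were higher (27.8%) and 3892 lower (27.3%) in the same fit. YTHDF2 against IgG called 3134 genes higher (22%) and 1268 lower (8.9%). Over all tested genes the median was 0.23 for YTHDF2 against input, -0.01 for IgG against input and -0.08 for YTHDF2 against IgG. A YTHDF2 value above its IgG value by about 0.23 is therefore typical. These contrasts share libraries, so they are given below gene by gene and list by list, as each one's own value. The median difference over the 5549 genes higher with YTHDF2 was 1.04 against input, 0.63 for IgG against input and 0.28 for YTHDF2 against IgG. Over the 3526 lower genes the medians were -0.83, -0.66 and -0.23. The IgG value is therefore printed beside most YTHDF2 values, as IgG against input unless stated otherwise. Counts called in a gene list for YTHDF2 against input are to be read beside the 38.9% higher and 24.7% lower of all genes. For IgG against input the shares of all genes are 27.8% and 27.3%, and for YTHDF2 against IgG 22% and 8.9%.

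Ythdf2 mRNA itself (chr4:132184916-132212256, GRCm38, protein coding) was recovered with the antibody against its own protein. It stood at 212, 249 and 232 CPM in YTHDF2 libraries 1 to 3, 92.3, 95.8 and 85.8 in the inputs and 75.2, 76.3 and 77.7 in the IgG libraries. The YTHDF2 libraries lay above all the others, with no overlap. Ythdf2 rose by 1.34 ± 0.12 (log2 difference ± SE, quasi-likelihood test, adjusted p = 2.09e-09). Each SE was derived from the F statistic of the fit of all 9 libraries, with 3 pairs of YTHDF2 and input. IgG stood at -0.26 ± 0.12, which was not called, and YTHDF2 against IgG at 1.59 ± 0.12. Ythdf2 was also higher in the m6A pull-down than in its input (0.27 ± 0.07) and fell by 1.78 ± 0.36 between 0 and 4 h of actinomycin D in WT cells.

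**Figure D2:**
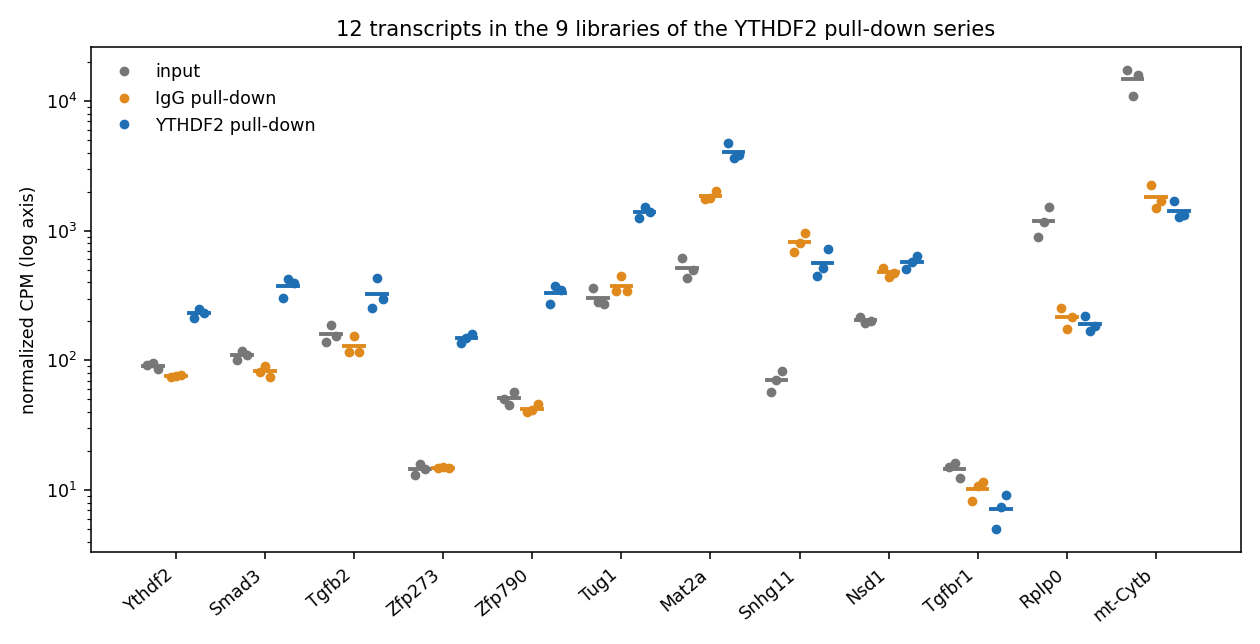
Normalized CPM (log axis) of 12 transcripts in each of the 3 input, 3 IgG and 3 YTHDF2 libraries, with bars at the group means. Ythdf2, Smad3, Tgfb2, Zfp273, Zfp790 and Tug1 were high in the YTHDF2 libraries alone, Snhg11 and Nsd1 in both pull-downs, and Rplp0 and mt-Cytb were low in both.

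TGF-beta signalling begins with secreted ligands that bind paired type I and type II receptor kinases, which phosphorylate SMAD proteins that then enter the nucleus, and it is restrained by corepressors, ubiquitin ligases and an inhibitory SMAD. Among the ligands, Tgfb2 (chr1:186622787-186709697, protein coding) stood at 252, 431 and 298 CPM with YTHDF2 against 138, 187 and 154 in the inputs and 116, 155 and 117 with IgG. The YTHDF2 libraries again lay above all 6 others. Tgfb2 rose by 1.01 ± 0.13 over input (adjusted p = 2.62e-07) and by 1.32 ± 0.13 over IgG, while IgG was below input by -0.31 ± 0.13 (adjusted p = 0.041). The activin and inhibin subunits Inhbb (1.25, IgG 0.28) and Inha (0.91) also rose, so that 3 of 4 tested ligands did, and Tgfb3 was not called (-0.42). Inha was below 3 CPM in every library, rose with IgG by 1.35, and lost its call under several alternatives, among them the fit without pairing.

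Of the SMADs, Smad3 (chr9:63646766-63757994, protein coding), a receptor-activated SMAD of the TGF-beta branch, changed most. It stood at 302, 422 and 392 CPM with YTHDF2, 101, 118 and 110 in the inputs and 81.0, 91.3 and 75.2 with IgG. No YTHDF2 library overlapped either other group. Smad3 rose by 1.76 ± 0.13 over input (adjusted p = 8.75e-11) and by 2.16 ± 0.13 over IgG, and IgG was below input by -0.41 ± 0.13. Smad7, the inhibitory SMAD, rose by 1.26 ± 0.32 (IgG 0.63, not called) from levels of 0.722 to 2.76 CPM in the inputs, with overlapping groups. Smad9, a SMAD of the BMP branch, fell by 1.08 ± 0.27 and fell with IgG by 1.44, and it lost its call without replicate 1 and without input library 1. The partner SMAD of all branches, Smad4, stood at 11.2, 12.8 and 11.8 CPM with YTHDF2 against 8.97, 12.8 and 14.9 in the inputs, a difference of -0.01 ± 0.17 (adjusted p = 0.981). Smad2 was not called (0.28 ± 0.14). In all, 3 of 7 tested SMADs rose (42.9%) and 1 fell, with a median of 0.28, near the 38.9% and 0.23 of all genes.

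The receptors were mixed. Acvr1, an activin and BMP type I receptor, stood at 29.7, 47.6 and 40.9 CPM with YTHDF2 against 13.5, 11.8 and 18.4 in the inputs and 14.2, 13.6 and 15.7 with IgG. It rose by 1.44 ± 0.17 over input and by 1.43 ± 0.17 over IgG, with no overlap. Tgfbr1, the TGF-beta type I receptor, moved the other way, from 15.0, 16.2 and 12.5 CPM in the inputs to 4.99, 7.46 and 9.16 with YTHDF2. It fell by 1.06 ± 0.19 (adjusted p = 4.8e-05), also fell with IgG (-0.55 ± 0.19), and did not pass the test between the pull-downs (-0.51 ± 0.20). Acvr2a rose by 0.74 ± 0.19, a call lost without replicate 3 and with length-adjusted offsets, while Tgfbr2 (-0.39), Tgfbr3 (-0.57) and Acvr1b (-0.28) were not called. Of 7 tested receptors, 3 rose (42.9%, against 38.9% of all genes) and 1 fell (14.3%, against 24.7%). Their median was -0.28, below the 0.23 of all genes.

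Of the corepressors and other regulators of the pathway, 12 of 15 were higher and none lower, with a median of 0.79, against 38.9% higher over all genes. They include genes that restrain the pathway, such as Bambi, Tgif1 and Skil, and others, such as Usp9x, that act on SMAD turnover or on the receptors. Bambi, a decoy receptor that lacks the kinase domain, stood at 56.5, 38.8 and 17.7 CPM with YTHDF2, 12.8, 6.64 and 8.22 in the inputs and 7.95, 5.22 and 3.98 with IgG. It rose by 1.97 ± 0.20 and by 2.67 ± 0.21 over IgG. The corepressor Tgif1 stood at 105, 129 and 149 CPM with YTHDF2 and 43.3, 43.0 and 48.0 in the inputs, a rise of 1.50 ± 0.13, with IgG between them (0.63 over input). Skil, a corepressor related to Ski, rose by 1.15 ± 0.15 with IgG at 0.60, and Ski itself was not called (0.35). The ubiquitin ligase Smurf2 and the deubiquitinase Usp9x were also high with IgG: Smurf2 by 0.79 with YTHDF2 and 0.94 with IgG, Usp9x by 1.36 and 1.50. The list's median was 0.60 for IgG against input and 0.04 for YTHDF2 against IgG, where 7 of 15 rose (46.7%, against 22% of all genes). It was 0.50 with length-adjusted offsets, where the all-gene median was 0.001. Smurf1 rose by 0.51 (adjusted p = 0.0443) and lost its call under several alternatives.

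Of 9 tested genes for latency and activation of TGF-beta, 3 rose (33.3%, against 38.9% of all genes) and 1 fell (11.1%, against 24.7%). The fibrillins Fbn1 (1.34) and Fbn2 (1.56), which anchor latent complexes in the matrix, were as high with IgG (1.41 and 1.70). The latent binding protein Ltbp1 was not called (-0.06), and the integrin Itgav fell by 0.43, a call lost without pairing. Tgfb1 and Inhba did not pass the filter on low counts.

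**Figure D3:**
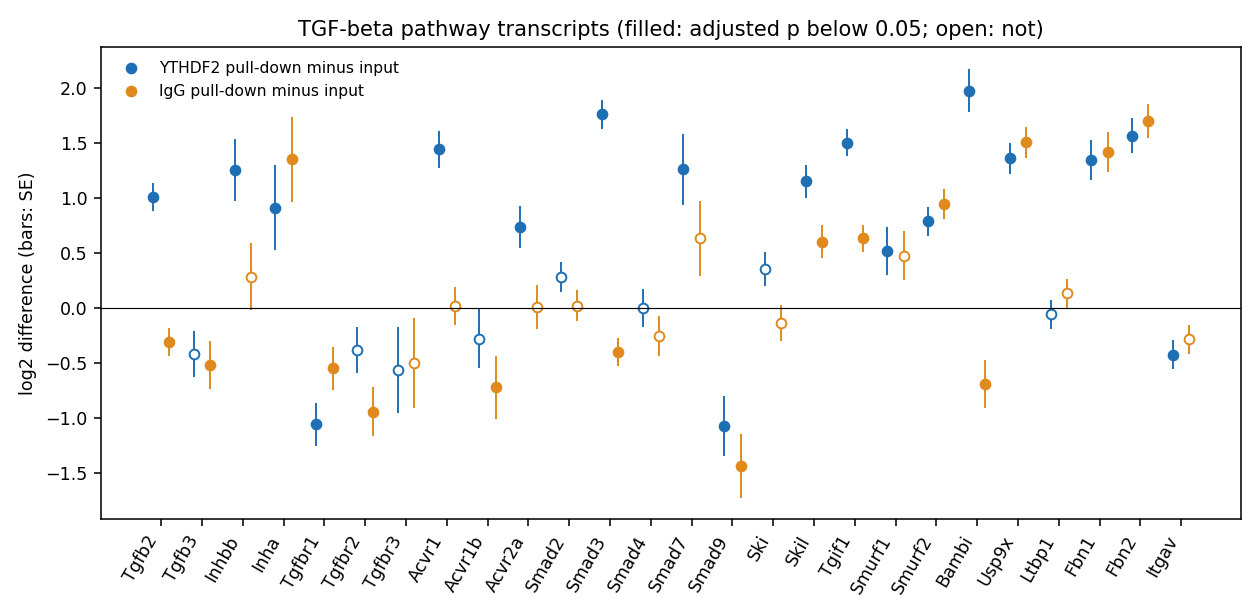
Log2 difference from input, with SE, of 26 TGF-beta pathway transcripts for the YTHDF2 pull-down (blue) and the IgG pull-down (orange), filled where the adjusted p was below 0.05. Tgfb2, Acvr1, Smad3 and Bambi stood at 1.01 to 1.97 with YTHDF2 and at or below 0.01 with IgG, while Usp9x, Fbn1 and Fbn2 were high with both.

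Of the 12 genes named by size of rise, 6 were Zfp-named genes, which encode zinc finger proteins, many of them DNA-binding repressors with a KRAB domain. Zfp273 (chr13:67813816-67827000, protein coding) stood at 135, 149 and 160 CPM with YTHDF2, 13.0, 16.0 and 14.4 in the inputs and 14.9, 15.0 and 14.9 with IgG. It rose by 3.35 ± 0.14 (adjusted p = 2.69e-14), with IgG at 0.05 ± 0.14. Zfp790 went from 50.2, 45.7 and 56.9 CPM in the inputs to 274, 372 and 351 with YTHDF2 (2.70 ± 0.14), and IgG gave 40.2, 41.8 and 45.8. The IgG libraries of both genes sat at the level of the inputs. Zfp87 (2.75) and Zfp41 (2.55) were similar, with IgG at 0.05 and -0.37. Zfp26 rose by 2.57 ± 0.15 with IgG at 1.27.

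Over the whole Zfp-named group, 258 of 322 tested genes were higher with YTHDF2 (80.1%) and 9 lower, with a median of 1.24. Their summed level was 19100 to 25900 CPM in the YTHDF2 libraries, 8610 to 9180 in the inputs and 11100 to 12500 with IgG. The pull-downs therefore did not overlap with each other or with input. The median was 0.22 for IgG against input, with 113 higher and 28 lower (27.8% and 27.3% of all genes). It was 0.86 for YTHDF2 against IgG, where 214 rose (66.5%, against 22% of all genes) and 7 fell. Medians in the 3 pairs were 0.96, 1.34 and 1.29. With transcription blocked, 234 of 314 Zfp genes fell in WT cells between 0 and 4 h, with a median of -1.94 (all genes: 3402 of 14029, 24.2%). In the m6A pull-down 53 of 319 were higher and 3 lower, against 6.06% and 14.3% of all genes, with a median of 0.27. The exceptions that fell with YTHDF2 ranged from Zfp277 at -0.41 to Zfp575 at -1.14; these 2 were picked out after their values were seen. The number that fell was 3 without replicate 2 or without pairing, 4 with library size alone, and 5 without replicate 3, without YTHDF2 library 1 or without YTHDF2 library 3. It was 14 with DESeq2 and in the YTHDF2 and input libraries alone, 15 with RLE scaling factors and 18 with length-adjusted offsets. Zinc finger genes form clusters of related copies, so reads may be shared between members.

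Other large rises had varied roles. Mat2a, which makes the methyl donor S-adenosylmethionine and whose mRNA carries well-studied m6A sites, stood at 4747, 3626 and 3808 CPM with YTHDF2 against 614, 435 and 497 in the inputs. It rose by 2.98 ± 0.15, with IgG between the groups at 1768, 1794 and 2010 CPM (1.87 over input). Sertad3, a small transcriptional regulator, rose by 2.78 ± 0.13 (IgG 0.69), Ankrd9 by 2.77 ± 0.15 (IgG 0.57) and Fam32a by 2.55 ± 0.13 (IgG 0.67). Each of these 4 was higher with YTHDF2 than with IgG, by 1.11 to 2.20. Adamts6, a secreted metalloprotease, was not: it stood at 65.2, 76.7 and 106 CPM with YTHDF2, 9.21, 9.16 and 15.6 in the inputs and 80.4, 87.0 and 132 with IgG. It rose by 2.88 ± 0.14 over input, with IgG at 3.15, and the pull-downs overlapped.

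Immediate early and other short-lived transcripts, which encode transcription factors and feedback inhibitors made soon after growth factor stimulation, were also raised: 27 of 43 rose (62.8%, against 38.9% of all genes) and 4 fell, with a median of 0.73. Spry2, a feedback inhibitor of receptor tyrosine kinase signalling, stood at 336, 511 and 344 CPM with YTHDF2, 99.9, 127 and 119 in the inputs and 121, 186 and 154 with IgG. It rose by 1.76 ± 0.13 over input and by 1.37 ± 0.13 over IgG. Its relative Spry1 rose by 2.22 ± 0.16 (IgG 0.38). Egr2, an early growth response factor, stood at 19.2, 88.1 and 42.0 CPM with YTHDF2 and 4.95, 22.3 and 11.2 in the inputs, so the groups overlapped but every pair moved the same way (1.95 ± 0.17, IgG -0.01). Over the list the IgG median was 0.22 and that of YTHDF2 against IgG 0.37, with 23 of 43 higher (53.5%, against 22% of all genes). Without pairing, 16 rose and 2 fell. In WT cells 36 of the 42 measured members fell over 4 h of actinomycin D, against 24.2% of all genes, with a median of -3.49.

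Long noncoding RNAs were raised with both antibodies. Of 11 tested nuclear long noncoding RNAs, 9 rose and none fell, with a median of 1.39 against input and 1.05 for IgG. Snhg11 (chr2:158375713-158386474, noncoding) stood at 447, 519 and 722 CPM with YTHDF2, 56.7, 70.5 and 83.4 in the inputs and 680, 803 and 958 with IgG. Both pull-downs lay far above input, and YTHDF2 was below IgG (-0.55 ± 0.12). Malat1 was the most abundant, at 54069, 36924 and 57827 CPM with YTHDF2, 25593, 20716 and 21881 in the inputs and 62288, 44161 and 65509 with IgG. Meg3 (2.00) and Neat1 (1.95) were likewise higher still with IgG (2.25 and 2.58), and Neat1, whose groups overlapped, lost its call without pairing. 2 members were higher with YTHDF2 than with IgG, Tug1 and Airn, and neither was called for IgG against input. Tug1 stood at 1255, 1519 and 1389 CPM with YTHDF2, 360, 280 and 272 in the inputs and 340, 444 and 342 with IgG. Tug1 rose by 2.19 ± 0.15 over input and 1.89 ± 0.15 over IgG, and Airn by 1.39 and 1.15. Malat1, Meg3 and Airn were singled out after the values were seen. Over all 638 tested genes that the RefSeq table marks as long noncoding, 316 rose (49.5%) and 32 fell, with a median of 0.85 (IgG 0.43), against a median of 0.18 for 12973 protein-coding genes.

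Hosts of small nucleolar RNAs gave a similar picture, with 6 of 10 higher and 2 lower, a median of 0.59 and an IgG median of 0.84. Snhg5 rose by 1.50, Snhg7 by 1.51 and Gas5 by 1.10, and none of the 10 was higher with YTHDF2 than with IgG. Of 38 genes for histone methylation and acetylation enzymes, 23 rose and 1 fell (median 0.63), and the IgG median was 0.67. Nsd1, a histone methyltransferase, stood at 504, 571 and 634 CPM with YTHDF2, 217, 196 and 202 in the inputs and 516, 444 and 470 with IgG. Jmjd1c (1.63) and Mll3 (1.58, an older symbol of Kmt2c) were as high with IgG (1.62 and 1.64). The list's median was 0.12 with length-adjusted offsets, with 15 higher and 3 lower; these are long transcripts, with a median of 1.86 times the typical relative length. Replication-dependent histones had 3 of 23 higher and none lower (Hist1h1b 1.20, IgG 1.40).

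Transcripts of energy metabolism and translation were depleted from both pull-downs. All 7 tested mitochondrially encoded mRNAs fell, with a median of -2.18 (IgG -1.76). mt-Cytb stood at 1702, 1274 and 1317 CPM with YTHDF2, 17247, 10868 and 15962 in the inputs and 2247, 1503 and 1682 with IgG. It fell by 3.35 ± 0.14, with IgG at -3.02 ± 0.14. The entry Rnr2 fell the most of the named genes, from 44684, 37834 and 64374 CPM to 3834, 2799 and 3169 (-3.89 ± 0.16, IgG -4.10), and Rnr1 fell by 2.83; neither symbol had a match in the gene table used here. The share of all counts in mitochondrially encoded genes was taken with Rnr1 and Rnr2 counted among them. It was 6.51% to 9.35% in the inputs, 0.989% to 1.24% with YTHDF2 and 1.09% to 1.44% with IgG.

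Of 78 cytosolic ribosomal protein genes, 60 fell and 10 rose, with a median of -0.96 (IgG -0.80). Rplp0, an acidic stalk protein of the large subunit, stood at 221, 170 and 185 CPM with YTHDF2, 897, 1168 and 1517 in the inputs and 252, 176 and 215 with IgG. It fell by 2.64 ± 0.17, and the 2 pull-downs overlapped. Rplp1 (-2.98 ± 0.19), Rps20 (-2.49) and Rps29 (-2.46) also fell, with IgG at -2.85, -2.35 and -2.32. The members that rose were led by Rpl14 (0.79), Rpl17 (0.78) and Rps3 (0.74), chosen after their values were seen, and each was higher still with IgG (1.09, 1.00 and 0.97). Ribosomal protein genes have many processed pseudogene copies, so reads could be split between loci. The list's median differed between pairs, at -0.23, -1.04 and -1.42 for pairs 1 to 3. YTHDF2 library 1 held 5.07% of its counts in these genes, against 2.79% and 3.19% in libraries 2 and 3 and 4.45% to 5.14% in the inputs. Without pairing 34 fell and 7 rose, and with length-adjusted offsets 43 fell and 16 rose (median -0.40). All 78 were also lower in the m6A pull-down than in its input, with a median of -1.57, against 14.3% of all genes.

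The nuclear genes of oxidative phosphorylation moved with them: 66 of 74 fell and 1 rose, with a median of -1.01 (IgG -0.77), or -0.56 with length-adjusted offsets. Among them were Atp5e (-2.35), Ndufs6 (-1.90) and Cox5a (-1.73), with IgG at -2.23, -1.61 and -1.55. Of 19 glycolysis genes, 13 fell and 2 rose (median -0.70, IgG -0.61), including Aldoa (-1.49), Tpi1 (-1.50) and Aldoc (-1.41). Of 31 proteasome subunits, 19 fell and 3 rose (median -0.51, IgG -0.31), with Psma6 at -1.35, Psmc6 at -1.21 and Psmd8 at -1.20. The iron storage subunit Fth1 fell by 2.37 ± 0.16 and the small GTPase Rap1a by 2.33 ± 0.14, with IgG at -2.17 and -2.08. Among the 12 named genes with the largest falls, IgG against input was between -4.10 and -2.08 in every one. These 12 were picked by their fall against the same input libraries, so their IgG values are not a separate test.

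**Figure D4:**
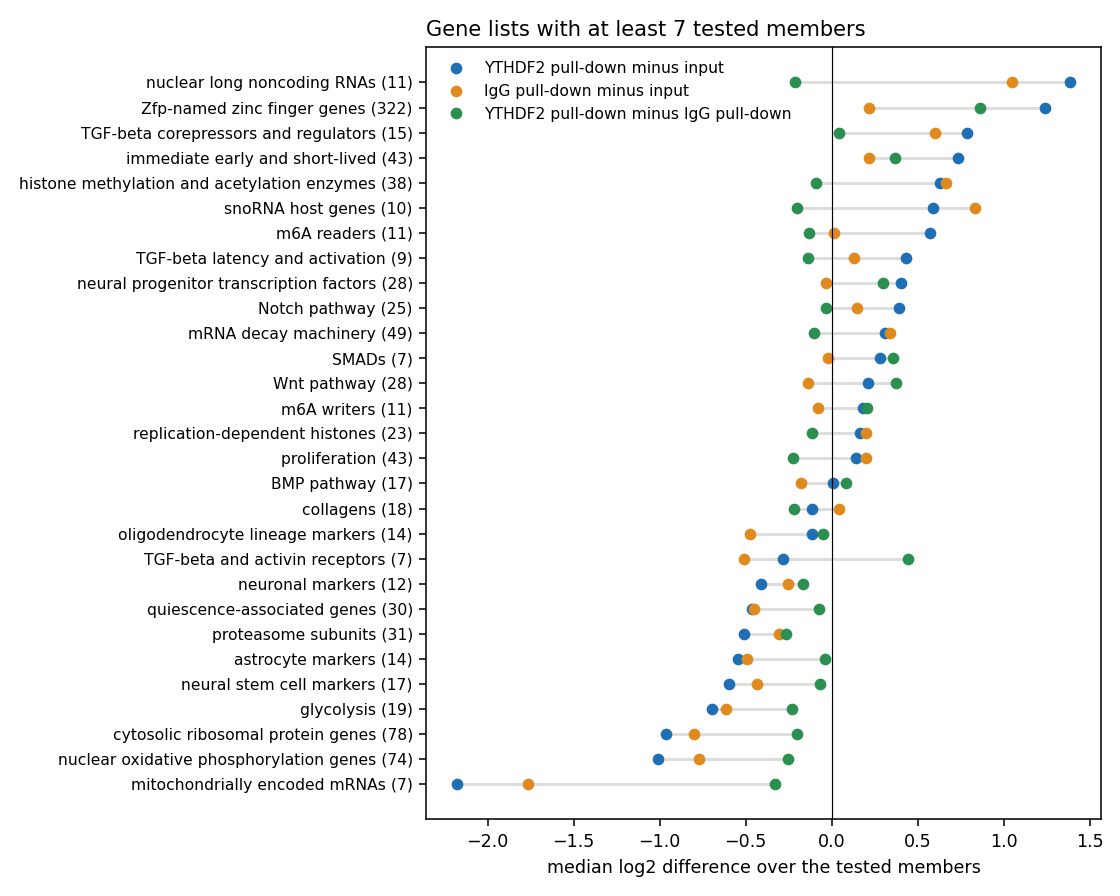
Median log2 difference over the tested members (number in brackets) of gene lists with at least 7 of them, for YTHDF2 against input, IgG against input and YTHDF2 against IgG. Zfp-named genes kept a median of 0.86 over IgG, whereas nuclear long noncoding RNAs, chromatin enzymes, ribosomal protein and oxidative phosphorylation genes had IgG values close to those of YTHDF2.

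Genes listed as neural stem cell markers were more often lower than higher: 4 of 17 rose and 9 fell, with a median of -0.59 (IgG -0.43). This list is wider than the NSC transcripts named for the inputs and includes Ccnd1 and Cd24a. Ccnd1, the D-type cyclin that drives G1, stood at 281, 273 and 273 CPM with YTHDF2, 933, 1032 and 786 in the inputs and 331, 369 and 300 with IgG. It fell by 1.72 ± 0.13, and Msi2, an RNA-binding protein of stem cells, was lower by -1.18 ± 0.12 (IgG -1.10). Cd24a fell by 0.94 with YTHDF2 and by 1.52 with IgG. Quiescence-associated genes were also lower, with 14 of 30 down and 5 up (median -0.46, IgG -0.45), including the cell cycle inhibitor Cdkn1a (-1.59, IgG -1.43) and the matrix protein Sparc (-1.45, IgG -1.04). Proliferation genes were near the typical value, with 15 of 43 higher (34.9%, against 38.9% of all genes) and 10 lower (23.3%, against 24.7%). Their median was 0.14. The mitotic kinesin Kif23 (1.21, IgG 1.59), Birc5 (1.05, IgG 0.53) and Tk1 (0.97, IgG 0.03) rose. Without pairing, 8 proliferation genes rose and 4 fell.

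Transcription factors of neural progenitors rose more often, with 15 of 28 higher (53.6%, against 38.9% of all genes) and 6 lower (21.4%, against 24.7%). Their median was 0.40 (IgG -0.03). Sox6 stood at 276, 357 and 409 CPM with YTHDF2 and 161, 150 and 206 in the inputs (1.01 ± 0.13, IgG 0.54). Sox8 rose by 1.15 (IgG 0.90) and Nr2f1 by 0.83 (IgG 0.30), and Sox8 did not pass the test between the pull-downs (0.25 ± 0.13). The count moved with the setting: 5 rose without pairing, 9 without replicate 3, and 7 in a fit of the YTHDF2 and input libraries alone. In the Notch pathway 10 of 25 rose, near the 38.9% of all genes, and 4 fell (16.0%, against 24.7%). Their median was 0.39 (IgG 0.15), and -0.03 for YTHDF2 against IgG. Without pairing 7 Notch genes rose and 0 fell. The receptor Notch2 stood at 40.5, 36.9 and 39.3 CPM with YTHDF2 against 11.9, 10.9 and 15.8 in the inputs (1.61 ± 0.15, IgG 0.68), the target Hey2 rose by 1.62 (IgG 0.05), and the ligand Jag1 by 0.83, as high with IgG (0.92) and lost without pairing. In the Wnt pathway 11 of 28 rose (39.3%) and 5 fell, also near the share of all genes (median 0.21, IgG -0.13), with the receptor Fzd1 at 1.18 (IgG -0.17), the adaptor Dvl1 at 1.55 (IgG 1.33) and the secreted modulator Dkk3 at -1.77 (IgG -1.42). In the BMP pathway 3 of 17 rose (17.6%) and 4 fell (23.5%), with a median of 0.01, and 5 rose without input library 1. Its smallest p-values were those of the antagonist Chrdl1 (-1.22, IgG -0.88), Fstl1 (-1.16, IgG -0.82) and the protease Bmp1 (0.91, IgG 1.25). Collagens had 2 of 18 higher and 4 lower (Col12a1 1.53, IgG 1.74; Col9a1 0.87; Col4a5 -0.71, the last pair lost without pairing), and 8 fell without input library 3.

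Among transcripts of the m6A machinery, 5 of 11 writer genes rose (45.5%, against 38.9% of all genes) and 3 fell (27.3%, against 24.7%), with a median of 0.18, below the 0.23 of all genes. The catalytic subunit Mettl3 stood at 93.1, 79.8 and 95.2 CPM with YTHDF2, 47.2, 34.5 and 46.1 in the inputs and 118, 99.9 and 108 with IgG, a rise of 1.08 ± 0.12 with IgG at 1.36. The scaffold Virma (listed as 1110037F02Rik) rose by 1.58 (IgG 1.08) and the adaptor Rbm15 by 1.34 (IgG 0.59). Of the erasers, Alkbh5 fell by 0.63 and Fto was not called (-0.26). Of 11 readers 7 rose (63.6%) and 3 fell (27.3%), with a median of 0.57 (IgG 0.01). Against IgG their median was -0.13, beside -0.08 for all genes, with 4 of 11 higher (36.4%, against 22% of all genes). Ythdc2 rose by 1.23 (IgG 1.41) and Hnrnpa2b1 by 1.27 (IgG 1.58). Among the 49 genes of the mRNA decay machinery 22 rose (44.9%, against 38.9% of all genes) and 7 fell (14.3%, against 24.7%). The median was 0.31 (IgG 0.34). Taken relative to all genes, it ran from -0.07 to 0.17 over the 18 alternatives. The smallest p-values were those of the deadenylase subunit Pan3 (1.82, IgG 1.74), Smg1 of nonsense-mediated decay (1.53, IgG 1.45) and Hrsp12 (-1.69, IgG -1.52). With length-adjusted offsets 15 decay genes rose and 12 fell.

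Markers of other cell types moved as follows. Of 14 oligodendrocyte lineage markers 5 rose (35.7%, against 38.9% of all genes) and 6 fell (42.9%, against 24.7%). Without pairing, 2 rose and 0 fell. Gpr17, a receptor of committed oligodendrocyte precursors, stood at 225, 171 and 49.6 CPM with YTHDF2, 97.0, 53.8 and 17.0 in the inputs and 50.5, 40.9 and 12.4 with IgG, so that it differed between replicates by more than between groups and rose within each pair (1.46 ± 0.13). Pdgfra (1.19, IgG 0.57) and Cspg4 (1.19, IgG 0.30) also rose; Gpr17 and Pdgfra were not called without pairing. Of 14 astrocyte markers 2 rose and 10 fell, 5 of them without pairing, with Aldoc at -1.41, Glul at -1.02 and Mlc1 at -0.97 (IgG -1.16 for Aldoc and -0.78 for Mlc1). Of 12 neuronal markers 1 rose and 5 fell (Elavl3 -1.25, Elavl4 -0.53, Syn1 -1.59; IgG -1.44, -0.41, -0.54). Fibroblast markers had 0 of 5 higher and 3 lower (Thy1 -1.64, S100a4 -0.87 and Fbln1 -1.03, with IgG at -1.61, -0.79 and -0.71). Endothelial markers had 3 of 4 higher and 1 lower (Kdr 1.60, Vwf 0.76, Flt1 -1.73). IgG also gave 3 higher and 1 lower, with a median of 1.05. These 3 genes were near the floor, with mean input levels of 0.705 CPM for Kdr, 1.65 for Flt1 and 2.97 for Vwf. The endothelial median was 1.18, but -1.14 without the low-count filter (9 members) and -1.05 with length-adjusted offsets (2 members). Microglial markers had 1 of 2 higher (P2ry12 0.56, IgG -0.33), and Cd68 was not called (-0.39, IgG -0.26). Ependymal markers had 0 of 4 higher and 1 lower (Foxj1 -0.41, IgG -1.39). Elavl4, Syn1, S100a4, Fbln1, Flt1, Vwf, P2ry12 and Foxj1 each lost their call under at least 1 alternative.

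Independent libraries of the same genotype gave an m6A readout for these genes. In the m6A pull-down 858 of 14167 genes were higher than in its input (6.06%) and 2023 lower (14.3%). Among the 5343 genes higher with YTHDF2 that were also tested there, 644 were m6A-higher (12.1%) and 121 m6A-lower (2.26%), with a median of 0.17. Among the 3493 genes lower with YTHDF2, 48 were m6A-higher (1.37%) and 1447 m6A-lower (41.4%), with a median of -0.29. Read the other way, 644 of the 857 m6A-higher genes tested in both were higher with YTHDF2 (75.1%) and 48 lower, while 1447 of 2005 m6A-lower genes were lower (72.2%). Across 13637 genes the 2 differences had a Pearson r of 0.474 and a Spearman rho of 0.490; both are pull-down to input ratios, and both varied with transcript length.

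Blocking transcription gave a second readout. The actinomycin D values are relative to the pool remaining at 4 h, so stable transcripts gain share. The genes higher with YTHDF2 had a median change of -0.60 between 0 and 4 h, and 2129 of 5153 fell (41.3%). Scaled by library size alone, that median was -0.94, and the median of genes lower with YTHDF2 was 0.22 in place of the 0.56 below. The genes not called had a median of 0.00 with 968 of 4679 lower (20.7%), and those lower with YTHDF2 a median of 0.56 with 237 of 3504 lower (6.76%). When the 14255 genes were ordered by the difference between YTHDF2 and input and split into 10 equal groups, the median change went from 0.67 in the group most depleted with YTHDF2 to -0.82 in the ninth and -0.76 in the tenth. The m6A median went from -0.45 in the first to 0.22 in the tenth. Over the same groups the median of IgG against input went from -1.02 to 1.3, and that of YTHDF2 against IgG from -0.25 to 0.55. The order therefore also followed the IgG pull-down. The Spearman rho between the YTHDF2 difference and the 4 h change was -0.449 across 13336 genes. In untreated cells of the Ythdf2 cKO label against WT, the median difference was -0.23 for genes higher with YTHDF2 and 0.16 for genes lower. Ythdf2 itself was higher by 2.74 in the libraries labelled cKO. Counts per gene cannot show whether a part of that transcript was missing, and the reason for the higher value was not tested.

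Transcript length moved with the pull-down. Relative length, taken from the ratio of counts to TPM in the inputs, had a median of 1.28 times the typical transcript among genes that rose and 0.735 times among genes that fell. In 5 equal length classes the median difference between YTHDF2 and input was -0.40, -0.05, 0.12, 0.33 and 0.60 from shortest to longest. The share called higher was 21.0% in the shortest class and 60.7% in the longest, and the share called lower 47.7% and 10.1%. IgG against input rose along the same classes, from -0.37 to 0.33, and YTHDF2 against IgG from -0.18 to 0.02. Within every length class, genes higher with YTHDF2 had a higher m6A median than genes lower: in the shortest class 0.03 against -0.65, and in the longest 0.17 against -0.04. Their 4 h change was lower in every class, at -0.02 against 0.71 in the shortest class and -0.77 against 0.23 in the longest. Level moved less, with a median difference of 0.49 in the lowest of 5 classes of mean level and -0.02 in the highest.

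**Figure D5:**
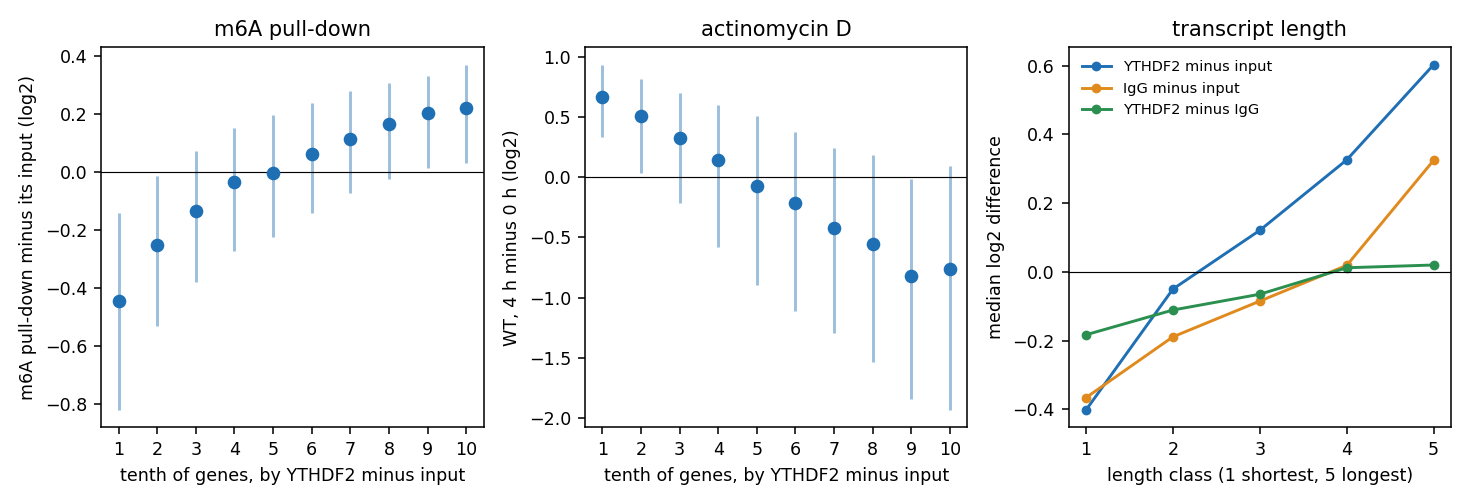
Left and middle, 10 equal groups of genes ordered by YTHDF2 minus input, with the median (point) and the middle 50% of genes (bar) of the m6A pull-down difference and of the change from 0 to 4 h of actinomycin D in WT cells (log2). The median of IgG against input, not drawn there, went from -1.02 to 1.3 over these groups. Right, median log2 differences in 5 transcript length classes: YTHDF2 against input ran from -0.40 to 0.60 and YTHDF2 against IgG from -0.18 to 0.02.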

How the data were processed

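Raw counts per gene were deposited by the authors for the YTHDF2-RIP-seq, m6A-IP-seq and RNA-seq libraries, with TPM tables deposited beside them. Per the submitters' processing notes the reads went through bcl2fastq 2.17.1.14, Trimmomatic 0.32 and STAR 2.5.2a on GRCm38; no counting tool or gene annotation is given there (not given in the sources used here). Per the labels' protocols the pull-down libraries used a modified SMART-seq3 method. Samples were taken by column name.

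Counts of the 9 RIP-seq libraries were fitted in edgeR 4.0.16 (R 4.3.3; quasi-likelihood, TMM scaling, filterByExpr, replicate number as a block, 4 residual degrees of freedom) with Benjamini-Hochberg adjustment over 14255 of 26621 genes and a threshold of 0.05. The m6A (6 libraries) and RNA-seq (18 libraries) tables were fitted without a block. DESeq2 1.42.0 and limma 3.58.1, on log2(TPM + 1), were alternatives. Same-numbered RIP-seq libraries deviated together (r = 0.353 to 0.646 over 9 pairs; other pairs -0.398 to -0.0141), so the numbers were treated as pairs. No 2 libraries were near-identical. The procedure was tested on simulated data. Normalized CPM uses the TMM library sizes.

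Named genes were Ythdf2, TGF-beta components, the 12 largest called differences each way at a mean log2 CPM of at least 5 without overlap, and the 3 smallest p-values in each of 35 gene lists. Gene coordinates come from RefSeq's GRCm38.p6 table, which matched 13876 tested genes. The comparison and the lists were chosen with earlier results of these data known. One gene that the rule named is not reported here.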

Additional observations from a re-analysis of the deposited data

How the results depend on the processing

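No alternative turned a gene called higher or lower into the opposite call except length-adjusted offsets, which turned 46 higher calls to lower and 7 lower calls to higher among 12650 genes. Smad2, not called in the main result (0.28), fell by 0.437 under length-adjusted offsets. Without the replicate block 4373 genes were higher and 2490 lower, and leaving out replicates or single libraries gave 4646 to 5594 higher and 2845 to 3412 lower. limma on log2(TPM + 1) gave 7450 higher and 1881 lower, so that 79.8% of calls were higher, against 61.1% in the main result, 51.9% with RLE factors, 51.6% with DESeq2, 51.6% in the 6 YTHDF2 and input libraries alone and 51.0% with length-adjusted offsets. The median of all genes was 0.45 with TPM, 0.32 with library size alone, 0.06 with RLE factors, 0.04 in the 6 libraries and 0.001 with length-adjusted offsets. Relative to it, 9 lists stayed above and 14 below all genes in the main result and all 18 alternatives, and 12 changed side; Zfp-named genes lay 0.93 to 1.03 above. One alternative, TMM factors without mitochondrially encoded genes, Rnr1 and Rnr2, was chosen after seeing the data and gave 5304 higher and 3698 lower.

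The m6A replicate numbers were not taken as pairs (r = 0.341, 0.427 and 0.0708). With that replicate block the m6A-higher share was 31.4% of genes higher with YTHDF2, 5.41% of those lower and 17.9% of all. With library size alone the median change from 0 to 4 h was -0.941 for genes higher with YTHDF2 and 0.223 for genes lower. The cause of these differences was not tested. The fit of the 9 libraries left 4 residual degrees of freedom.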
